A study of Mus musculus with 6 samples.

Results

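The genes described here are 10 Sox transcription factor genes of neural cells (Sox2, Sox4, Sox5, Sox6, Sox8, Sox9, Sox10, Sox11, Sox13 and Sox21), taken by gene name from the 49585 genes of each deposited table. All 10 were found once, and 9 passed the filter on low counts, which Sox10 did not. RNA came from mGB2, a mouse cell line that its labels call glioblastoma stem cells, in 3 libraries labelled Bcat1-KO and 3 labelled control, all untreated. Bcat1 encodes the cytosolic enzyme that moves the amino group of leucine, isoleucine and valine to 2-oxoglutarate. All cells were cultured adherent on a coating of matrix proteins, in a medium for neural stem cells that held N2, B27, EGF and FGF, and harvested at confluency. The labels do not say how the knockout was made, whether it is 1 clone, or whether replicates were separate cultures. A p-value here therefore measures spread between libraries that may be technical.

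Sox proteins bind DNA through an HMG box, a domain that bends the double helix, and fall into subgroups by the similarity of that box. In the nervous system SoxB1 proteins (Sox1, Sox2, Sox3) keep progenitors undifferentiated and the related SoxB2 protein Sox21 counteracts them, while SoxC proteins (Sox4, Sox11, Sox12) act in young neurons. SoxE proteins (Sox8, Sox9, Sox10) specify glia and drive oligodendrocyte genes, and SoxD proteins (Sox5, Sox6, Sox13), which carry no activation domain of their own, modify the action of other Sox proteins. Sox2 is widely used as a marker of glioblastoma stem cells.

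The subgroups can be seen in the sequence of the HMG box. The lines below give 60 coding bases of 8 members, 1 pair from each subgroup, to show how alike the boxes of a pair are. In the results below, Sox6 and Sox13 changed in opposite directions, while the members of each other pair did not. Sequences are from GENCODE M21 transcripts, 5′ to 3′ on the coding strand, and capitals mark the 27 bases that are the same in all 10 members.
Sox2: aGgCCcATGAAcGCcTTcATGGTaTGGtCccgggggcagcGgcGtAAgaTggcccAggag
Sox21: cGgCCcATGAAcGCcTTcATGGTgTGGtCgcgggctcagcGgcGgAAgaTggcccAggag
Sox4: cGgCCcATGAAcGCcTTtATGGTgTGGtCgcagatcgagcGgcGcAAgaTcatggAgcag
Sox11: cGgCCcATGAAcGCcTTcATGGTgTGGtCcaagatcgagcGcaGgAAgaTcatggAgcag
Sox6: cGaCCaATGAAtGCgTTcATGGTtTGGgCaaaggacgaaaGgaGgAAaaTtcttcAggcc
Sox13: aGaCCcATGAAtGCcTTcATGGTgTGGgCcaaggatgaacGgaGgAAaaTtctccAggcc
Sox8: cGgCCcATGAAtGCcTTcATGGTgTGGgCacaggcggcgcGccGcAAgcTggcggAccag
Sox9: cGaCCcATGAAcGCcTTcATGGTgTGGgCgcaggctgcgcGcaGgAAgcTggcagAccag

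These windows lie at chr3:34650548-34650607 for Sox2 (plus strand), chr14:118235549-118235608 for Sox21, chr13:28952782-28952841 for Sox4, chr12:27342199-27342258 for Sox11, chr7:115489703-115489762 for Sox6, chr1:133385506-133385565 for Sox13 and chr17:25570163-25570222 for Sox8 (all minus strand), and at chr11:112782903-112782962 for Sox9 (plus strand), in mm10. Each lies within 1 coding exon, which is the only exon of Sox2, Sox21, Sox4 and Sox11, the first of 3 in Sox8 and Sox9, exon 14 of 16 in Sox6 and exon 12 of 14 in Sox13. Over 210 bases that start at the same place, the 8 pairs within a subgroup were 81.9% to 91.0% identical and the 37 pairs across subgroups 52.9% to 75.2%. Sox4 and Sox11 were the closest pair (91.0%). The longest run of identical bases between the transcripts of any pair was 48, also in Sox4 and Sox11. It was 23 for Sox8 and Sox9 and 16 for Sox6 and Sox13. How reads inside such runs were assigned was not tested.

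**Figure D1:**
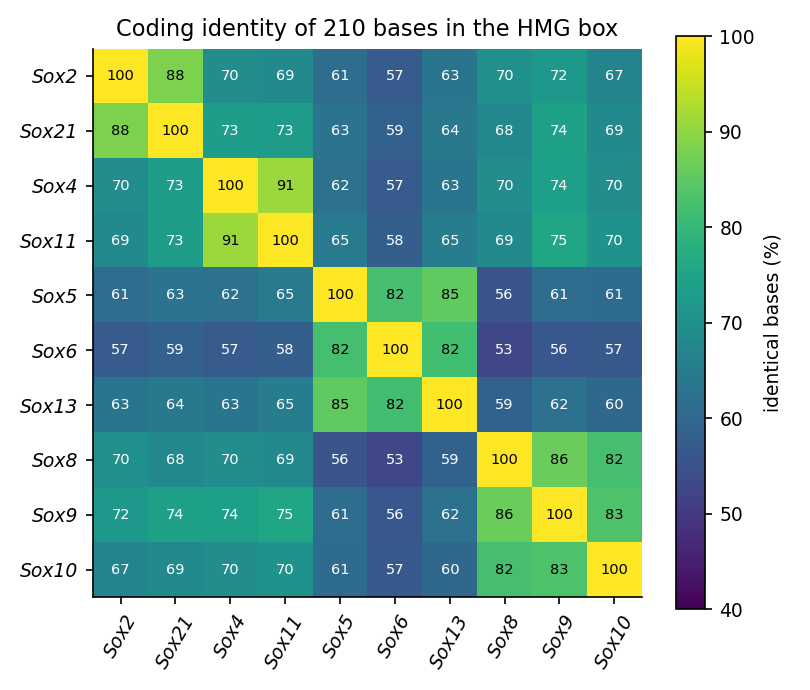
Percentage of identical bases (colour and number) for each pair of the 10 Sox genes over 210 coding bases of the HMG box, ordered by subgroup (SoxB, SoxC, SoxD, SoxE). The blocks along the diagonal hold the pairs within a subgroup, from 81.9% to 91.0%, and all other pairs lie at 75.2% or below.

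Of the 9 members tested, 6 were higher in the Bcat1-KO libraries (Sox2, Sox5, Sox6, Sox8, Sox9 and Sox21), 1 was lower (Sox13), and Sox4 and Sox11 did not pass (edgeR's quasi-likelihood test, with p-values adjusted over 14020 genes after Benjamini and Hochberg and a threshold of 0.05). Of all genes tested 62.3% passed, 32.0% higher and 30.3% lower, so that 7 of 9, or 77.8%, is not far from the background. The size of the changes stood further from it. In a test against a 1.5-fold change 5 members were higher and 1 lower, where 21.7% of all genes passed, 11.2% higher and 10.6% lower. The median log2 fold change of the 9 members was 1.31, against 0.01 for all genes tested. The groups did not overlap for 7 of 9 members, where 67.7% of all genes had no overlap. The members were chosen with results of these data known, so these counts describe them and are no test of the set.

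Libraries held 29543157 to 37800648 counts, and 3 counts in a library correspond to 0.0780 to 0.103 CPM, the count scaled by the TMM-adjusted size of the library. Bcat1 itself was 155, 176 and 173 CPM in the knockout libraries and 214, 223 and 232 CPM in the control, with a log2 fold change of -0.41 (SE 0.07, edgeR adjusted p = 0.000355). These counts cover the whole gene and say nothing of a single edited exon. Bcat1-KO replicate 1 was the lowest knockout library for 8 of 9 members, and Bcat1-KO replicate 3 the highest for 9 of 9. Of the 8 progenitor and glioblastoma stem cell markers, 6 had a mean above 1 CPM in both groups, Prom1 was at 0.829 CPM in the knockout libraries and 0 in the control, and Fut4 was at 0. The markers of mature oligodendrocytes summed to 2.53 to 3.47 CPM over all libraries with Mog and Mag at 0, and those of endothelial cells to 0.249 to 0.994 CPM with Cldn5 at 0. Over the knockout libraries the astrocyte markers summed to 548 to 583 CPM, against 257 to 292 CPM for the control libraries. Of 6 tested, 5 were higher, where 32.0% of all genes tested were. Most of the rise of this sum was that of Aldoc, from 167 ± 17.2 to 440 ± 16.9 CPM. Gja1, the next most abundant, went from 110 ± 3.16 to 103 ± 1.33 CPM and did not pass. Slc1a2, Aqp4, Gfap and S100b also passed as higher, with knockout means of 12.4, 3.90, 1.93 and 1.85 CPM. Fibroblast and mural cell markers summed to 4.48 to 6.07 CPM in knockout libraries against 24.6 to 26.5 CPM in control libraries. Of these, 3 of 3 tested were lower, where 30.3% of all genes tested were. Most of the fall of this sum was that of Col1a1, from 17.7 ± 0.783 to 4.21 ± 0.973 CPM. Rgs5, Col1a2, Dcn and Lum stayed below 1 CPM in every library and were not tested. Schwann cell and neural crest markers, 2 of 2 tested lower beside the same 30.3%, summed to 9.53 to 13.1 against 15.4 to 16.5 CPM, with Foxd3 at 0. The neuron markers, of which 3 were tested with 2 higher and 1 lower, summed to 21.3 to 30.5 CPM in the knockout and to 45.7 to 47.3 CPM in the control, with Stmn2 at 0. The fall of this sum was that of Rbfox3, from 33.1 ± 0.667 to 0.0719 ± 0.0415 CPM, while Syt1 rose from 12.7 ± 0.554 to 23.1 ± 5.21 CPM and Gad1 also passed as higher. The immune markers summed to 2.55 to 4.26 CPM over all libraries, with Itgam at 0. Every stem cell marker but Cd44, and Gfap and S100b among the astrocyte markers, also belongs to a gene list used further on. The part of these cell types in the results below was not tested. In bulk RNA a change in the share of cells that express a gene and a change in RNA per cell cannot be told apart.

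**Figure D2:**
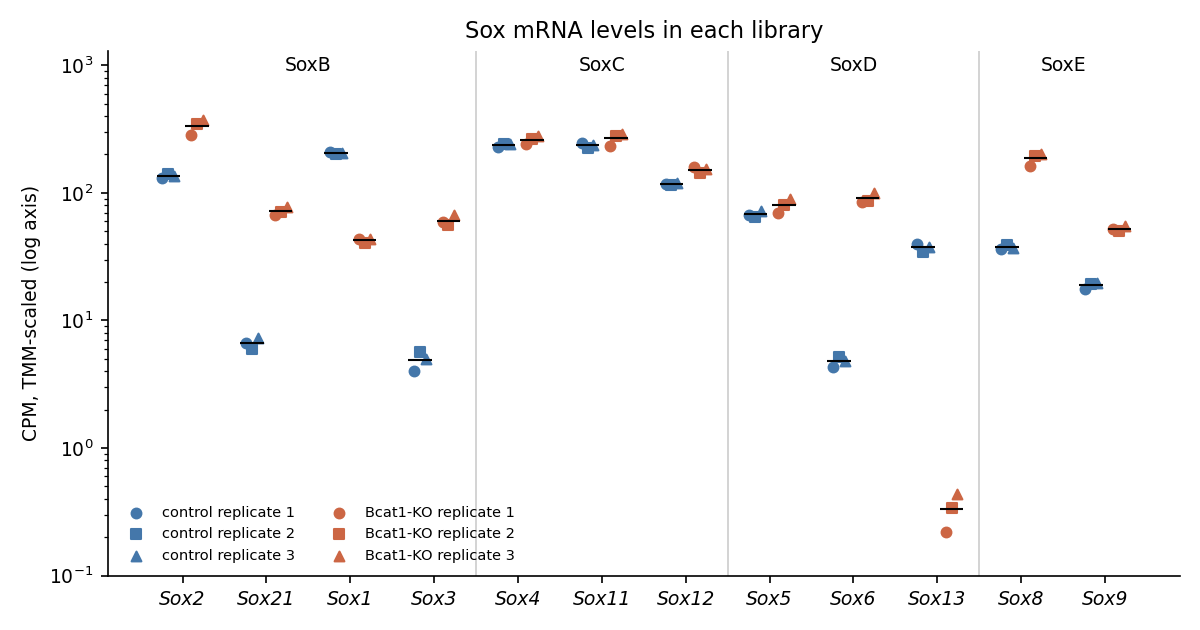
TMM-scaled CPM on a log axis for the 9 tested members and for Sox1, Sox3 and Sox12, with each point a library (control blue, Bcat1-KO orange, marker shape the replicate) and a black line at the group mean. The groups lie far apart for Sox21, Sox1, Sox3, Sox6, Sox13 and Sox8 and close together for Sox4, Sox11 and Sox5.

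In the SoxB subgroup, Sox2 and Sox21 were both higher in the knockout. Sox2 (ENSMUSG00000074637.7, chromosome 3 from 34650405 to 34652461, mm10, a gene of 1 exon) was at 287, 347 and 375 CPM in the knockout and at 131, 140 and 137 CPM in the control. Every knockout library lay above every control library, with Bcat1-KO replicate 1 the lowest of the knockout libraries. The means were 336 ± 44.9 and 136 ± 4.40 CPM (SD, n = 3 each), a log2 fold change of 1.31 (SE 0.09, edgeR adjusted p = 2.11e-07). Sox21 (ENSMUSG00000061517.8, chromosome 14 from 118233232 to 118237030) was at 67.3, 70.9 and 76.9 CPM in the knockout libraries against 6.71, 6.03 and 7.26 CPM in the control. Its knockout mean was 10.8 times the control mean and the groups lay far apart, with a log2 fold change of 3.43 (SE 0.09, edgeR adjusted p = 4.61e-11). The factor that keeps progenitors undifferentiated and its SoxB2 counterpart both rose.

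The other SoxB1 genes, which are not among the 10 members, moved in opposite directions. Sox1 was at 43.4, 40.6 and 43.2 CPM in the knockout and at 208, 202 and 206 CPM in the control, a log2 fold change of -2.28 (SE 0.06, edgeR adjusted p = 6.06e-11). Sox3, on chromosome X, was at 58.9, 55.9 and 66.9 CPM in the knockout and at 4.04, 5.63 and 4.99 CPM in the control, a log2 fold change of 3.63 (SE 0.12, edgeR adjusted p = 2.35e-10). Neither pair of groups overlapped. Compared in TPM, a level per exonic length of a gene, Sox1 was the third most abundant Sox gene in the control, at 134 ± 3.07 TPM. It was the ninth in the knockout, at 28.7 ± 0.777 TPM. Sox2 was the most abundant in both groups, at 209 ± 5.10 TPM in the control and 536 ± 79.6 TPM in the knockout (SD, n = 3 each). Within the sum of Sox1, Sox2, Sox3 and Sox21 TPM, Sox1 went from 37.8% ± 1.14 to 4.02% ± 0.517, Sox3 from 2.10% ± 0.311 to 13.4% ± 1.25 and Sox2 from 58.6% ± 0.936 to 74.0% ± 2.12 (SD, n = 3 each). This grouping was added after the values were seen.

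In the SoxE subgroup, Sox8 and Sox9 rose and Sox10 was not detectable. Sox8 (ENSMUSG00000024176.10, chromosome 17 from 25565892 to 25570686), which acts beside Sox9 and Sox10 in the oligodendrocyte lineage, was at 162, 193 and 203 CPM in the knockout. In the control it was at 36.4, 38.8 and 37.1 CPM, so that no library of one group came near the other. The log2 fold change was 2.31 (SE 0.09, edgeR adjusted p = 7.64e-10). Sox9 (ENSMUSG00000000567.5, chromosome 11 from 112782224 to 112787760), a factor for glial specification that astrocytes keep, was at 52.5, 50.0 and 55.2 CPM in the knockout libraries and 17.5, 19.2 and 19.7 CPM in the control. Its groups did not overlap either, and its log2 fold change was 1.48 (SE 0.08, edgeR adjusted p = 1.15e-08). Sox10 (ENSMUSG00000033006.9, chromosome 15 from 79154913 to 79164490), the factor that drives myelin genes, had 1 count over the 3 knockout libraries and 0 over the 3 control libraries. Both are under the floor of 3 counts, which limits its level to at most 0.103 CPM in a library, and no ratio is given. This floor covers counting error only.

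In the SoxD subgroup Sox13 fell to near the floor and Sox6 rose. Sox13 (ENSMUSG00000070643.11, chromosome 1 from 133382303 to 133424377), which is found in many tissues besides the nervous system, was at 39.8, 34.6 and 37.6 CPM in the control and at 0.222, 0.338 and 0.440 CPM in the knockout. Its raw counts were 3493 over the control group and 37 over the knockout group. The fitted level was 111 times higher in the control, a log2 fold change of -6.79 (SE 0.16, edgeR adjusted p = 1.65e-11). On the log2(TPM + 1) scale, which compresses low values, the change was -4.50. Sox6 (ENSMUSG00000051910.13, chromosome 7 from 115470872 to 116038796), which together with Sox5 restrains oligodendrocyte maturation, went the other way, from 4.36, 5.21 and 4.85 CPM in the control to 85.5, 85.6 and 100.2 CPM in the knockout. The knockout mean was 18.8 times the control mean with no overlap, a log2 fold change of 4.23 (SE 0.10, edgeR adjusted p = 1.65e-11), or 3.37 on the log2(TPM + 1) scale. These were the largest changes in either direction among the 9 members tested.

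Sox5 (ENSMUSG00000041540.16, chromosome 6 from 143828425 to 144781977), the closest relative of Sox6 in function, changed by a small amount. It was at 69.8, 80.7 and 89.3 CPM in the knockout libraries and 67.5, 64.2 and 72.0 CPM in the control, and the groups overlapped, with Bcat1-KO replicate 1 below control replicate 3. Its log2 fold change was 0.24 (SE 0.09, 95% interval 0.04 to 0.43, edgeR adjusted p = 0.0358). The call was lost when Bcat1-KO replicate 2 (adjusted p = 0.0823), Bcat1-KO replicate 3 (adjusted p = 0.186), control replicate 1 (adjusted p = 0.111) or control replicate 2 (adjusted p = 0.161) was left out of the edgeR fit. It was also lost with limma on log2(TPM + 1), at an adjusted p of 0.0608. Without Bcat1-KO replicate 3 its log2 fold change was 0.14.

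In the SoxC subgroup the levels of both members were high and close between the groups. Sox4 (ENSMUSG00000076431.4, chromosome 13 from 28948919 to 28953713) was at 242, 264 and 279 CPM in the knockout libraries and 228, 242 and 241 CPM in the control, with a log2 fold change of 0.14 (SE 0.07, 95% interval -0.01 to 0.30, edgeR adjusted p = 0.0998). Sox11 (ENSMUSG00000063632.6, chromosome 12 from 27334264 to 27342574) was at 234, 279 and 289 CPM in the knockout libraries and 246, 225 and 236 CPM in the control, with a log2 fold change of 0.18 (SE 0.08, 95% interval -0.003 to 0.37, edgeR adjusted p = 0.0807). The knockout libraries of Sox4 lay narrowly above the controls, while those of Sox11 overlapped them, with Bcat1-KO replicate 1 below control replicates 1 and 3. The intervals do not reach a 1.5-fold change for either gene. Without Bcat1-KO replicate 1, Sox4 (log2 fold change 0.18, adjusted p = 0.0183) and Sox11 (0.25, adjusted p = 0.00329) passed edgeR's test as higher. Sox4 also passed with limma on log2(TPM + 1) (0.19, adjusted p = 0.0408), and Sox11 with a gene length offset in edgeR (0.20, adjusted p = 0.0333). Sox12, the remaining SoxC gene and not a member, was at 159, 143 and 154 CPM against 118, 114 and 119 CPM, a log2 fold change of 0.37 (SE 0.06, edgeR adjusted p = 0.000313).

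**Figure D3:**
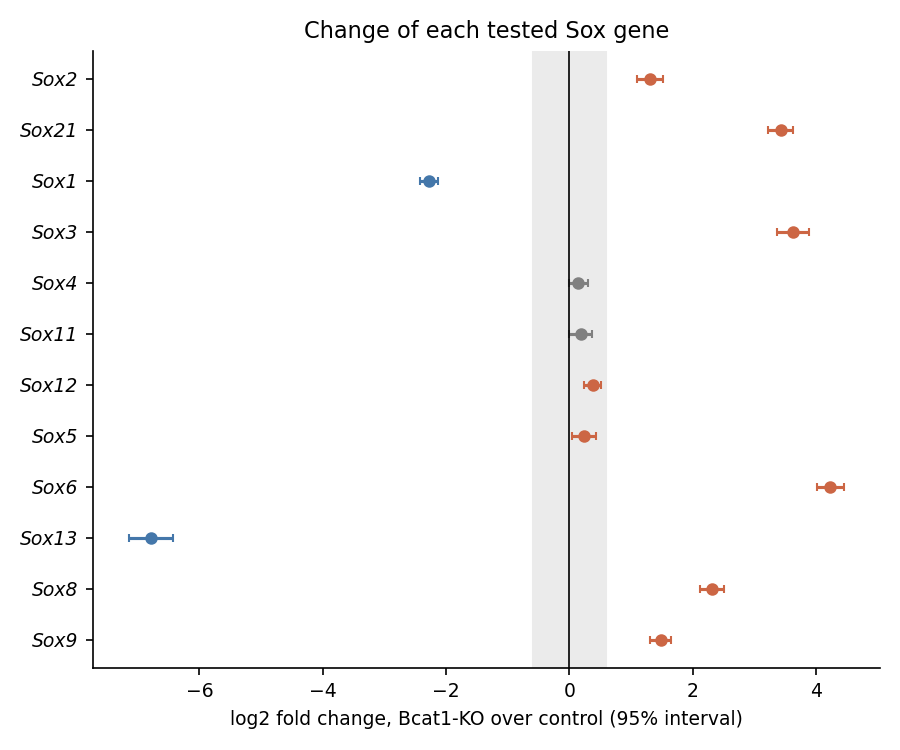
Log2 fold change of Bcat1-KO over control with its 95% interval for each tested Sox gene (orange higher, blue lower, grey not past the threshold), with the grey band marking changes smaller than 1.5-fold. Sox4, Sox11, Sox12 and Sox5 lie inside the band, Sox13 and Sox1 to its left, and Sox2, Sox21, Sox3, Sox6, Sox8 and Sox9 to its right.

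Levels of different genes can be compared per length, and on that scale the subgroups differed in how far their sum and their makeup changed. The summed TPM of Sox2 and Sox21 was 504, 622 and 668 in the knockout libraries and 209, 218 and 216 in the control. For Sox8, Sox9 and Sox10 the sum was 208, 246 and 259 against 50.6, 53.5 and 52.7 TPM. The SoxE sum was 4.55 times and the SoxB sum 2.79 times its control mean, and neither overlapped. For Sox4 and Sox11 the sum was 252, 294 and 307 against 245, 242 and 249 TPM, a ratio of 1.16. These groups lay close together but did not overlap.

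The summed TPM of the SoxD genes was 34.2, 38.0 and 43.1 in the knockout libraries and 45.2, 40.2 and 44.4 in the control, a ratio of 0.889. The groups overlapped through Bcat1-KO replicate 3 and control replicate 2 (exact two-sided permutation test, p = 0.20), and a test of this size cannot show that the sum stayed the same. Its makeup did not overlap. Sox13 gave 64.9%, 62.5% and 62.0% of that sum in the control and 0.482%, 0.684% and 0.781% in the knockout. Sox6 gave 2.06%, 2.73% and 2.33% in the control and 54.0%, 50.4% and 51.7% in the knockout, and Sox5 34.5% ± 1.33 and 47.3% ± 1.75 (SD, n = 3 each). By TPM, SoxD mRNA was thus mostly Sox13 in the control and about evenly Sox5 and Sox6 in the knockout. TPM here divides by the exonic length of a gene, 14376 bases for Sox5, 14832 for Sox6 and 4312 for Sox13. In CPM, with no division by length, Sox5 was above Sox13 in the control, at 67.9 ± 3.90 against 37.3 ± 2.59. How far the shares depend on these lengths was not tested.

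Shares moved less in the other subgroups. Sox8 was the more abundant SoxE gene in both groups, at 72.5% ± 1.04 of the sum in the control and 82.4% ± 1.73 in the knockout, and Sox21 went from 2.59% ± 0.276 to 10.4% ± 0.746 of the Sox2 and Sox21 sum. Sox4 gave 63.5% ± 1.77 of the SoxC sum in the control and 63.0% ± 1.07 in the knockout (SD, n = 3 each; exact permutation p = 0.80). With 3 libraries against 3 the smallest exact two-sided p is 0.10, and after Benjamini-Hochberg adjustment over the 13 sums and shares of the members it is 0.13. Apart from the SoxD sum (exact permutation p = 0.20, adjusted p = 0.236) and the Sox4 share, every sum and share of the members above had this p. The shares with Sox1 and Sox3 added were not among these 13 and have no adjusted p. The design cannot pass 0.05 on this test.

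**Figure D4:**
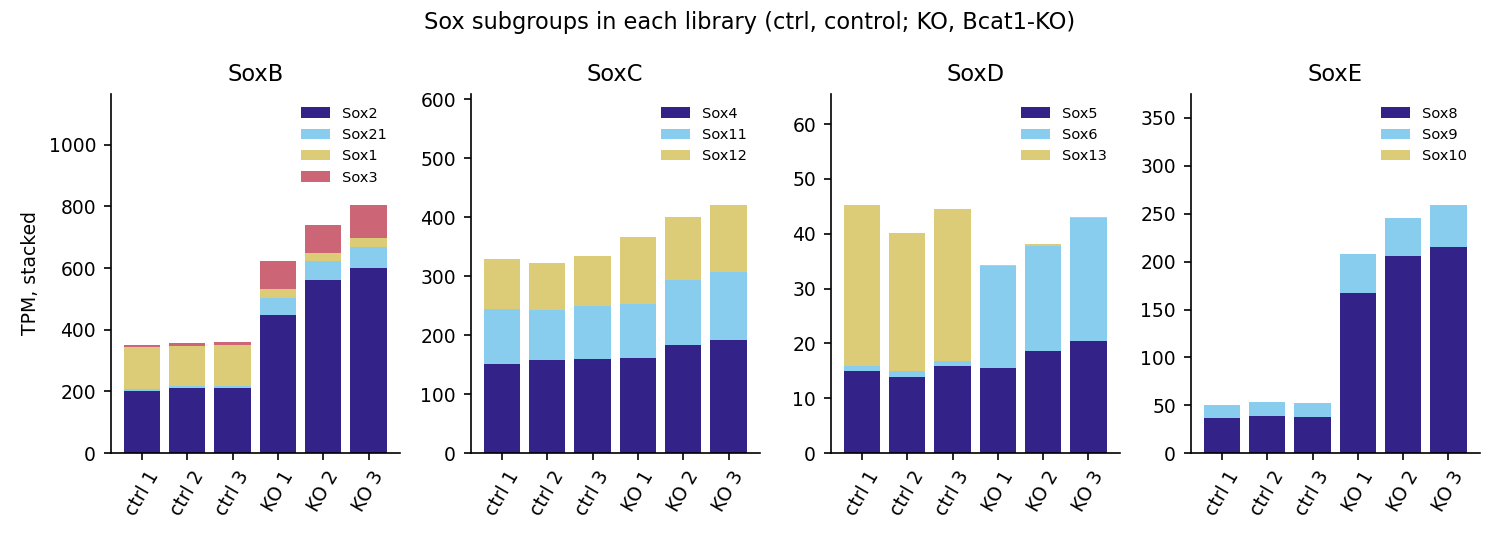
Stacked TPM of the genes of each Sox subgroup in every library (ctrl, control; KO, Bcat1-KO), with a separate vertical axis for each panel that starts at 0. The SoxB and SoxE stacks are taller in the knockout, the SoxC stacks change little, and the SoxD stacks overlap in height between the groups while the share of Sox13 shrinks and that of Sox6 grows.

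By TPM the order of the Sox genes in the control was Sox2, Sox4, Sox1, Sox11, Sox12, Sox8, Sox13, Sox5, Sox9, Sox3, Sox21 and Sox6. In that order the ranges of Sox11 and Sox12 overlapped, as did those of Sox5 and Sox9, and the other neighbours were apart in all 3 libraries. In the knockout it was Sox2, Sox8, Sox4, Sox12, Sox11, Sox3, Sox21, Sox9, Sox1, Sox6, Sox5 and Sox13, with overlap between Sox8 and Sox4, between Sox12 and Sox11, between Sox11 and Sox3, and between Sox6 and Sox5. Sox8, at 37.9 ± 0.919 TPM sixth in the control, reached 196 ± 25.3 TPM and second place. The 10 members together summed to 549.5, 554 and 562 TPM in the control and 998, 1200 and 1276 TPM in the knockout. Sox7, Sox14, Sox15, Sox17, Sox18 and Sox30 did not pass the filter on low counts and stayed below 1 TPM in every library. Sox7, Sox17 and Sox18 are genes of endothelial cells.

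Strand matters for several members, because other transcripts overlap them. Sox2 lies within Sox2ot, a noncoding RNA gene on the same strand, which was at 8.67, 16.3 and 11.4 CPM in the knockout libraries and 11.4, 10.6 and 9.88 CPM in the control. Sox2ot overlapped between the groups, with a log2 fold change of 0.19 (SE 0.19, edgeR adjusted p = 0.393), while Sox2 inside it rose. Leaving out Bcat1-KO replicate 1 gave Sox2ot 0.37 and a call (edgeR adjusted p = 0.0269), and leaving out Bcat1-KO replicate 2 gave -0.091. Gm26735, a noncoding gene on the opposite strand, covers 57.4% of the Sox4 gene, and counting without regard to strand left 43.4% of the Sox4 reads in the knockout libraries and 46.0% in the control. Gm26735 itself had 1.93 ± 0.229 and 2.15 ± 0.371 CPM in the knockout and the control. Gm4675, on the strand opposite to Sox21 and overlapping it, was higher in the knockout at 2.38, 3.12 and 2.61 CPM against 0.191, 0.241 and 0.275 CPM, a log2 fold change of 3.51 (SE 0.26, edgeR adjusted p = 3.06e-07) close to that of Sox21.

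Noncoding genes that start beside a member on the other strand also differed. 2810468N07Rik, which starts 125 bases beyond the start of Sox8, was at 22.7 ± 1.52 CPM in the knockout libraries and 9.13 ± 0.963 CPM in the control (log2 fold change 1.31, SE 0.11, edgeR adjusted p = 6.03e-07). BC006965, which starts 248 bases before Sox9, was at 4.26 ± 0.261 and 0.825 ± 0.161 CPM (2.37, SE 0.19, edgeR adjusted p = 6.75e-07). Both rose, as did their Sox neighbours. The protein-coding gene 1110004F10Rik, 601 bases from Sox6, was at 135 ± 13.0 and 113 ± 6.67 CPM, a log2 fold change of 0.26 where Sox6 had 4.23.

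The 10 tested genes nearest to each member, 5 on each side, were also compared, where 32.0% of all genes tested were higher and 30.3% lower. Some of them lie far from the member, up to 4917 kb for Tpm3-rs7 near Sox21. Around Sox9 they had a median log2 fold change of 1.20, with 7 higher and 1 lower, beside 1.48 for Sox9. Of the higher ones, Map2k6, Abca5, Abca9 and Abca8a lie 2257 to 2686 kb from Sox9. A shared change of the locus was not tested. Around Sox13 the median was -0.57, with 6 lower and 1 higher, and around Sox21 it was -0.61, with 6 lower and 1 higher, opposite to Sox21. For Sox2, Sox6 and Sox8 it was -0.16, -0.30 and -0.06. The nearest tested gene after Sox5 is Bcat1, 212 kb away, which was lower, and the 10 neighbours of Sox5 had a median of 0.43.

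Of the 10 members, 8 had a promoter in the RefSeq table (GRCm38.p6). Those of 4 members that rose by at least 2-fold are shown because these genes moved together. Each line gives the bases before the start site, 5′ to 3′ on the strand of the gene, and capitals mark matches on either strand to ACAAAG or ACAATG (cores bound by Sox proteins), CACGTG (an E-box), GGGCGG (a GC box), CCAAT or TATAAA.
Sox2: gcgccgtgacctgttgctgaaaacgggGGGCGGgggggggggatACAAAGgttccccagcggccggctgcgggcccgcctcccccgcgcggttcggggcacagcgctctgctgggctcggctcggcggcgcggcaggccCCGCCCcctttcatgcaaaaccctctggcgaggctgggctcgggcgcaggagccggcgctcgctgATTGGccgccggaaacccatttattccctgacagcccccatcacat
Sox21: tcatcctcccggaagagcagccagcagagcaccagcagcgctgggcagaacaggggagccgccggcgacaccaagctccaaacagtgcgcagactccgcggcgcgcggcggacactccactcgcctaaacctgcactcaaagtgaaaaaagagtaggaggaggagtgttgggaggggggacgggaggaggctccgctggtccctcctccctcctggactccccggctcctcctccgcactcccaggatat
Sox6: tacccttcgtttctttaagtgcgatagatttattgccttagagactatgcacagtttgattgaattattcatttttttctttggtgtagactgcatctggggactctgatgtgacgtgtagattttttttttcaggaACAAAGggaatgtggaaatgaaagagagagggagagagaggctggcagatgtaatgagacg
Sox8: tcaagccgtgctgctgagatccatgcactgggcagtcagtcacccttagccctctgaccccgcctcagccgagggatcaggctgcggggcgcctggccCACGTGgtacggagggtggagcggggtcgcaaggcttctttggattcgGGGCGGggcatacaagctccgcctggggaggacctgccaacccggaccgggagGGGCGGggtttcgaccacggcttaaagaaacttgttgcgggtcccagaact

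The lines are 250 bases at chr3:34649745-34649994 (Sox2, plus strand), at chr14:118237031-118237280 (Sox21) and at chr17:25570687-25570936 (Sox8), and the 198 bases outside the deposited gene at chr7:116038797-116038994 (Sox6), the last 3 on the minus strand. The Sox2 window held 1 ACAAAG, 2 GC boxes and 1 CCAAT. The Sox6 window held 1 ACAAAG. It is the outermost of 6 Sox6 windows in the table, and the others lie inside the gene and differ in their matches, one with 4 GC boxes and another with 2 ACAAAG and 2 ACAATG. The Sox8 window held 1 E-box and 2 GC boxes, and the Sox21 window held none of the 6 motifs. Among 32851 RefSeq promoter windows of 250 bases, 16.5% held ACAAAG, 10.7% ACAATG, 6.02% CACGTG, 32.7% GGGCGG, 33.8% CCAAT and 12.4% TATAAA. The windows of Sox2, Sox8 and Sox21 had a GC content of 72.0%, 65.6% and 65.2%, and that of Sox6 45.2% over its 250 bases, against a median of 52.4%. A match describes letters in the window and shows no binding.

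Transcription factors that pair with Sox proteins or act beside them in neural cells changed in both directions. Of 20 tested, 9 were higher and 8 lower, so that 85% passed where 62.3% of all genes did, at a median log2 fold change of 0.19. Pou3f2, a POU factor that binds beside Sox2 on neural enhancers, fell to 1.74 ± 0.185 CPM from 17.8 ± 1.25 CPM (log2 fold change -3.35, SE 0.13, edgeR adjusted p = 1.03e-09). The effectors of hedgehog signalling went apart, Gli3 from 8.52 ± 0.626 up to 49.4 ± 3.29 CPM and Gli2 from 42.2 ± 1.49 down to 7.55 ± 1.73 CPM. For none of these 3 genes did the groups overlap.

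Progenitor genes linked to SoxB1 proteins were higher for 11 of 16 tested and lower for 1, at a median log2 fold change of 0.60. Of all genes tested 32.0% were higher and 30.3% lower, and the share called in either direction was 75% in this list and 62.3% overall. Fabp7, which radial glia express, was at 188 ± 3.54 CPM in the knockout and at 6.26 ± 1.10 CPM in the control, and the Notch target Hes5 at 52.0 ± 7.72 and 5.59 ± 0.832 CPM. Cdh2, the N-cadherin of neuroepithelial cells, rose from 13.4 ± 1.58 to 83.3 ± 5.82 CPM and the glutamate transporter gene Slc1a3 from 247 ± 12.3 to 961 ± 15.0 CPM. Nes, Msi1, Egfr and Lin28b did not pass the test, and Hes1 was the member that fell.

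Of 17 genes linked to SoxE proteins in the oligodendrocyte lineage, 9 were tested, 6 were higher and 0 lower, at a median log2 fold change of 0.81. The share called in either direction, 66.7%, was near the 62.3% of all genes tested. By direction, every call in this list was higher, where 32.0% of all genes tested were higher and 30.3% lower. Ptprz1 and Cspg4, which precursors express, were at 364 ± 72.8 and 55.6 ± 9.85 CPM in the knockout libraries and 35.2 ± 2.58 and 9.63 ± 0.680 CPM in the control. S100b rose from 0.695 ± 0.290 to 1.85 ± 0.0218 CPM, and Cnp from 19.3 ± 1.57 to 33.9 ± 4.44 CPM. The myelin genes Mog and Mag, the connexin gene Gjb1 and the precursor gene Gpr17 had 0 counts in every library, beside the undetectable Sox10. Pdgfra, at 21.6 ± 1.24 and 21.8 ± 1.18 CPM, did not pass.

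Genes of a cartilage list, most of them matrix genes that Sox9 activates together with Sox5 and Sox6 in chondrocytes, did not share a direction. Of 15 in the tables, 8 were tested, 4 were higher and 2 lower, at a median log2 fold change of 0.42, and the share called was 75% against 62.3% of all genes. Col11a1 rose from 10.3 ± 1.43 to 93.5 ± 8.24 CPM and Col9a1 from 0.336 ± 0.134 to 3.71 ± 0.543 CPM. The other higher genes, Fgfr3 and Chst11, encode no matrix protein. Fgfr3 rose from 8.47 ± 0.433 to 11.9 ± 1.22 CPM and Chst11 from 128 ± 5.84 to 165 ± 17.7 CPM. Col2a1 fell from 30.9 ± 2.69 to 6.07 ± 0.799 CPM and Col9a3 from 23.4 ± 1.80 to 6.05 ± 1.76 CPM. Of 16 genes listed as early neuronal and linked to SoxC proteins, 13 were tested, 5 were higher and 4 lower, with a median of 0.10. The share called, 69.2%, was near the 62.3% of all genes. Nrcam rose from 3.57 ± 0.753 to 31.1 ± 2.82 CPM, Dcx from 0.444 ± 0.189 to 1.73 ± 0.0256 CPM, Elavl4 from 3.13 ± 0.187 to 9.66 ± 0.0538 CPM and Map2 from 168 ± 7.46 to 391 ± 28.5 CPM. The 4 that were lower are named after their values were seen. Elavl3, under 1 CPM, had the largest decrease on the log2 scale, from 0.683 ± 0.207 to 0.306 ± 0.00485 CPM (log2 fold change -1.15, SE 0.32, edgeR adjusted p = 0.00906). Klf4 fell from 49.2 ± 3.71 to 28.9 ± 2.72 CPM, Prox1 from 106 ± 4.38 to 71.3 ± 0.633 CPM and Mex3a from 202 ± 7.30 to 160 ± 14.2 CPM. All values named in these lists are means ± SD of 3 libraries, and every gene said to rise or fall passed edgeR's test at an adjusted p under 0.05.

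**Figure D5:**
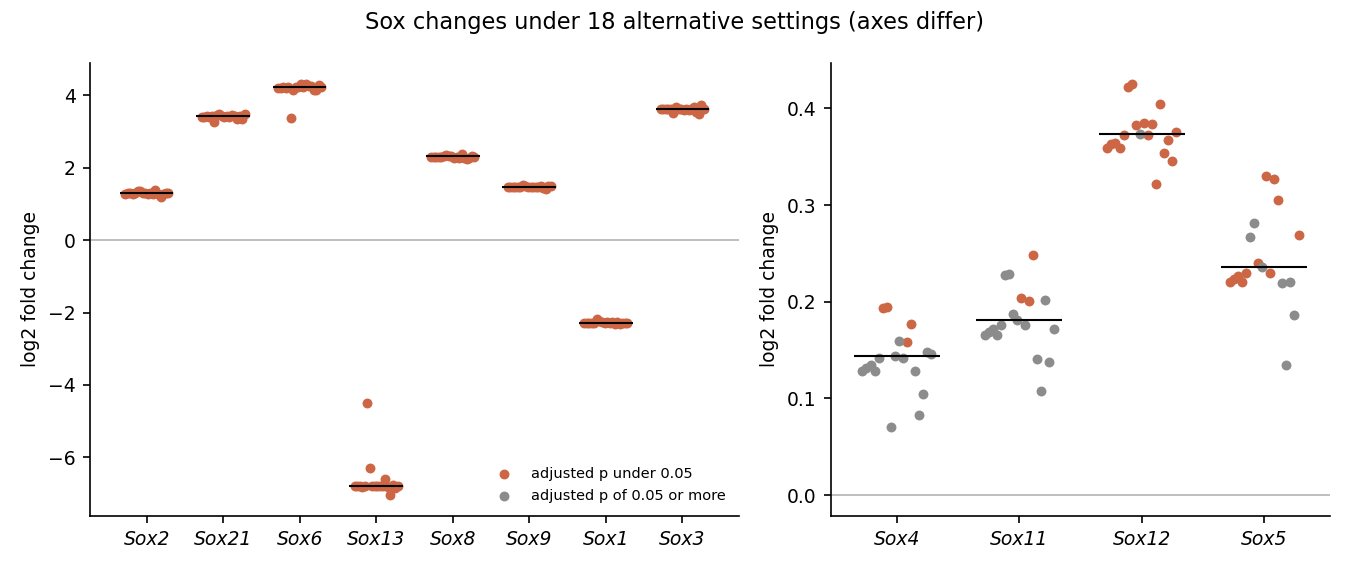
Log2 fold change of each tested Sox gene under 18 alternative settings (points, orange where the adjusted p is under 0.05 and grey where it is not) with the main value as a black line; the left panel holds the 8 genes with large changes and the right panel, on a finer axis, the 4 with small ones. The points of Sox2, Sox21, Sox6, Sox13, Sox8, Sox9, Sox1 and Sox3 are all orange, while Sox4, Sox11, Sox5 and Sox12 have points of both colours, Sox12 with a grey point in the test against a 1.5-fold change alone.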

How the data were processed

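RNA from 3 Bcat1-KO and 3 control samples of mGB2 was made into stranded poly(A) libraries, per the labels' protocols. Reads were aligned to mm10 with STAR 2.5.3a and assigned to genes with featureCounts (submitters' processing notes). The annotation release is not stated there. The deposited read counts are whole reads per gene, given without strand, on the forward and on the reverse strand, per the file headers. Between 96.4% and 96.5% of stranded reads lay on the reverse strand, and these counts were used. The authors' TPM values, per exonic length of each gene, served to compare genes. The other deposited TPM column, called a score here because its sum leaves chromosomes MT, X and Y aside, was not used.

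The expression filter of edgeR 4.0.16 kept 14020 genes and removed 0.0511% of counts. Counts were scaled by TMM and tested with its quasi-likelihood test with no covariate, adjusted over all genes at 0.05. The SE is the log2 fold change divided by the square root of the F statistic. Alternatives were RLE and upper-quartile scaling, no filter, DESeq2 1.42.0, limma 3.58.1 (voom, and trend on log2(TPM + 1) and log2(TPM + 0.1)), unstranded counts, a 1.5-fold threshold, a gene length offset, a replicate block, both together, and leaving out each library. The test was checked on simulated data. Replicate pairs differed beyond counting noise, so none was counted as a duplicate. Figures used matplotlib 3.10.9, with R 4.3.3 and Python 3.11.15.

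The members and lists were chosen with earlier results of these data known. Named genes are the 10 members, every other Sox gene past the filter, overlapping or adjoining transcripts, Bcat1, and from each list up to 4 genes, taken by size of change from those called whose mean log2 CPM was not below 0. A gene chosen by this rule is not reported here. Any other list gene named, including those not passing or at 0, was chosen after its value was seen. The same holds for single cell type markers and for neighbours farther from a member. HMG box windows were found by translating GENCODE M21 transcripts.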

Additional observations from a re-analysis of the deposited data

Results flagged for a closer look

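Reads on the strand opposite to a member were not used in the comparison, and for Sox2, Sox6, Sox8, Sox9 and Sox21 every knockout library held more of them, scaled to CPM, than every control library. For Sox2 they came to 1.76 ± 0.207 CPM in the knockout libraries and 0.590 ± 0.186 CPM in the control (SD, n = 3 each), or 0.525% and 0.439% of the reads on the strand of the gene. Sox21 had 1.12 ± 0.158 against 0.169 ± 0.0606 CPM, which is 1.56% and 2.57% of its own reads. Sox8 had 0.286 against 0.0846 CPM, from 32 and 8 counts, and Sox9 had 0.216 against 0.0763 CPM, from 24 and 7 counts. Sox6 had 8 counts over the knockout group and 0 over the control group, which is at or under the floor of 3 counts in every library. All of these genes were also higher on their own strand. Sox13 went the other way on both strands. It had 0 opposite-strand counts over the knockout group and 6 over the control group, at or under the floor of 3 counts in every library. Over all genes, 96.4% to 96.5% of stranded reads in each library lay on the reverse strand, which was used for the comparison. The share of all genes with such a difference on the opposite strand was not computed. Sox4 had more opposite-strand reads than any other member, 7.46 ± 0.568 CPM in the knockout libraries and 8.79 ± 0.823 CPM in the control. No cause was tested for these reads.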

How the results depend on the processing

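Under 18 alternatives Sox2, Sox6, Sox8, Sox9, Sox13 and Sox21 kept their direction and stayed past the threshold, with log2 fold changes of 1.21 to 1.39, 3.37 to 4.33, 2.23 to 2.38, 1.42 to 1.53, -7.05 to -4.50 and 3.26 to 3.48. The number of members called higher ranged from 5 to 8 and the number lower was 1. Sox5 lost its call in 7 of 18, Sox4 gained one in 4 and Sox11 in 3. Sox2ot, at 0.19, ranged from -0.091 without Bcat1-KO replicate 2 to 0.37 without Bcat1-KO replicate 1. The test against a 1.5-fold change called 1564 genes higher and 1481 lower in place of 4480 and 4255, 3 of the neural crest list in place of 5 and 1 Tcf gene in place of 4, since it asks for larger changes. With no filter on low counts 10 cartilage genes were called in place of 6, as more of them were tested. With Sox1 and Sox3 added, the log2 ratio of summed SoxB TPM was 1.02 in place of 1.48. The replicate numbers did not pair the samples, with correlations of deviations of -0.05, -0.07 and 0.16 for the same number. With the replicate block 4448 genes were higher and 4214 lower, and it changed no call of a member. Genes under about 0.1 CPM, such as Sox10, lie at the limit of the depth.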

Other observations

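The Tcf and Lef factors, which carry a related HMG box and mediate Wnt signalling, were measured beside the Sox genes. Lef1 rose from 2.44 ± 0.241 to 14.2 ± 2.53 CPM (mean ± SD, n = 3 each, log2 fold change 2.54, SE 0.16, edgeR adjusted p = 6.44e-08). Tcf7l2 and Tcf7 rose by log2 fold changes of 0.37 and 0.32, and Tcf7l1 fell by 0.28 on the log2 scale, from 66.2 ± 1.27 to 54.4 ± 5.03 CPM. All 4 passed the test, as did 62.3% of all genes tested. Lef1 alone passed the test against a 1.5-fold change, which 21.7% of all genes passed.

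Of 14 genes linked to Sox10 in neural crest, Schwann cells and melanocytes, 7 were tested, 2 rose and 3 fell, a share of 71.4% near the 62.3% of all genes tested, at a median log2 fold change of -0.21. Ednrb, the endothelin receptor gene, rose from 0.371 ± 0.154 to 5.53 ± 1.47 CPM, and Mitf, the melanocyte factor that astrocytes and other cells also express, from 2.42 ± 0.167 to 9.17 ± 0.841 CPM. Pmp22 fell from 32.3 ± 2.29 to 24.2 ± 2.45 CPM and Tfap2a from 27.1 ± 2.52 to 20.9 ± 4.28 CPM, with overlapping groups for Tfap2a. Foxd3, Pax3 and Tfap2b had 0 counts in every library, as Sox10 had in the control libraries.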
